A study of Mus musculus with 6 samples.

Results

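Collagen transcripts were followed in cultured primary brown adipocytes of WT and Ucp1-KO mice. The collagens were taken by name, as all genes whose symbol is Col, a type number, the letter a and a chain number, and each was represented by its most abundant RefSeq transcript over the 6 cultures. This gave 44 collagen genes of the 22466 genes with a RefSeq transcript in the table. They comprised 9 fibrillar chains (types I, II, III, V and XI), 8 chains of basement membranes (types IV, XV and XVIII) and 27 others. Of the 44, 24 reached a mean of 0.5 RPKM and entered the comparison of genotypes, namely 8 fibrillar, 5 basement membrane and 11 other chains, while 20 did not.

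Collagens are the main structural proteins of the extracellular matrix, each built of 3 alpha chains wound into a triple helix. Fibrillar collagens form the tension-bearing fibrils between cells, type IV collagen forms the sheet-like network of the basement membrane that surrounds every fat cell, and type VI collagen forms beaded filaments that link both and is abundant in adipose tissue. Fibroblasts and preadipocytes are known as strong producers of fibrillar collagen, whereas adipocytes keep producing chains of their basement membrane.

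The 3 WT cultures (replicates 10, 11 and 12) carried the wildtype genotype and the 3 Ucp1-KO cultures (replicates 13, 14 and 15) lacked functional Ucp1, the uncoupling protein of brown fat mitochondria. Both came from mice of strain 129SvEvS1 (129Sv/S1 in the methods of the study, which used young males), whose interscapular brown fat precursors were grown to confluency and differentiated with isobutylmethylxanthine, indomethacin, dexamethasone, insulin, T3 and rosiglitazone in both genotypes. How many animals stood behind each culture is not given in the sources used here, so p-values measure only the spread between these cultures. Abundance was given as RPKM, read numbers scaled to the length of the transcript and the depth of the library, so levels can be compared between genes. The library totals recovered from the RPKM values lay between 14989604 and 17727653 reads. On a transcript of 5000 bases, 3 reads equalled between 0.0338 and 0.04 RPKM, a floor for counting error only. Ucp1 itself, which checks the labels, was listed with 1775, 981 and 1157 RPKM in WT and 307, 409 and 398 RPKM in Ucp1-KO cultures, without overlap. Even this difference did not pass the adjusted p of 0.05 (log2 fold change -1.78, unadjusted p = 0.000157 and adjusted p = 0.868 by limma), so that a gene that misses it is not shown to be alike in the genotypes. The study itself, with another test on read counts, did list differential genes, Ucp1 and Comp among them but no collagen. Adipocyte markers were high in every culture, Adipoq at 1135 to 1714 RPKM and Cidea at 615 to 1371 RPKM.

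Collagen transcripts together accounted for 0.895%, 1.72% and 1.17% of all reads in the WT cultures and for 1.24%, 1.003% and 0.896% in the Ucp1-KO cultures. WT replicate 11 was the highest and WT replicate 10 the lowest, so the WT range enclosed all Ucp1-KO values. Summed over the 44 genes, the mean abundance in RPKM was 2325 ± 814.5 for WT and 1929 ± 293.4 for Ucp1-KO cells (SD, n = 3 each). Fibrillar chains made up 54.99% of this sum, basement membrane chains 16.1% and the others 28.9%. Most of the latter was type VI collagen, with 25.25% of the sum.

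**Figure D1:**
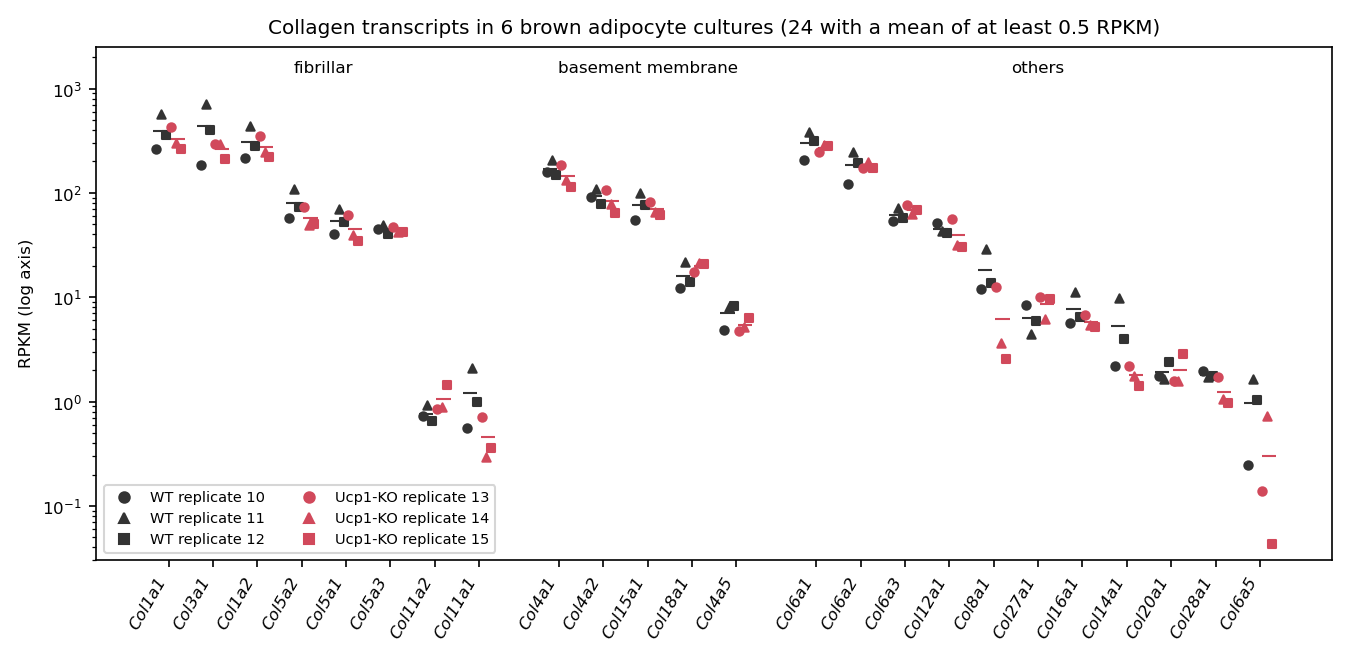
Abundance of the collagen genes tested (RPKM, log10 axis) in each of the 6 cultures, dark for WT and red for Ucp1-KO, with the genes grouped by class. Levels span from 718 RPKM (Col3a1 in WT replicate 11) to 0.0431 RPKM (Col6a5 in Ucp1-KO replicate 15), and the colours overlap for all of the 24 genes except 2 (Col14a1 and Col28a1).

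Among the fibrillar chains, the type I and III collagens of the main tissue fibrils were the most abundant. Col1a1, the alpha 1 chain of type I collagen (NM_007742, chromosome 11, 94936224 to 94953042 on GRCm38), was measured at 263, 568 and 357 RPKM in WT and 430, 299 and 266 RPKM in Ucp1-KO cultures. It ranked 105 of all genes by abundance. The highest and the lowest value were both found in WT. Col1a2, its partner chain (NM_007743, chromosome 6, 4505618 to 4541543), reached 215, 435 and 279 RPKM in WT and 349, 247 and 221 RPKM in Ucp1-KO cultures. Here, too, the Ucp1-KO values lay inside the WT range. Col3a1, the single chain type of type III collagen (NM_009930, chromosome 1, 45311538 to 45349706), was at 186, 718 and 401 RPKM in WT and at 295, 291 and 210 RPKM in Ucp1-KO cultures. It had the widest spread of the abundant fibrillar chains, 3.85-fold between the extreme cultures, both of them WT.

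The log2 fold changes of these 3 genes (Ucp1-KO against WT, on log2(RPKM + 1)) were smaller than the spread between cultures. They were -0.21 for Col1a1 (standard error 0.31, limma adjusted p = 0.929), -0.15 for Col1a2 (standard error 0.28, limma adjusted p = 0.947) and -0.52 for Col3a1 (standard error 0.45, limma adjusted p = 0.893). Without WT replicate 11 the first 2 turned to 0.08 and 0.12 and the last became -0.06. Without WT replicate 10 they were -0.47, -0.38 and -1.03, the last with an unadjusted limma p of 0.0121 and an adjusted p above the threshold.

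Type V collagen regulates the diameter of type I fibrils from within. Col5a2 was at 57.0, 109 and 72.6 RPKM in WT and at 73.2, 48.9 and 50.1 RPKM in Ucp1-KO cultures. Col5a1 was at 40.5, 70.1 and 52.1 RPKM in WT and at 61.7, 39.7 and 34.2 RPKM in Ucp1-KO cultures. Both followed the type I chains in having WT replicate 11 on top and in overlapping between genotypes, with log2 fold changes of -0.44 and -0.27. With 1 culture left out, these lay between -0.65 and -0.19 and between -0.51 and -0.07. Col5a3, another type V chain, was nearly flat, with 44.8, 49.6 and 40.2 RPKM in WT and 47.6, 42.2 and 42.3 RPKM in Ucp1-KO cultures. Its extremes were 1.24-fold apart, the narrowest range of the 24 genes tested.

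Type XI collagen, the fibril-nucleating relative of type V known from cartilage, was rare. Col11a1 was listed at 0.556, 2.08 and 0.992 RPKM in WT and at 0.706, 0.295 and 0.358 RPKM in Ucp1-KO cultures. Its Ucp1-KO mean was 37.4% of the WT mean, yet Ucp1-KO replicate 13 exceeded WT replicate 10 (log2 fold change -0.56, limma adjusted p = 0.871). The log2 fold change was -0.29 without WT replicate 11 and -0.78 without WT replicate 10. Col11a2 lay between 0.654 and 1.43 RPKM, with the highest value in Ucp1-KO replicate 15. Col2a1, the cartilage fibril chain, was above 0 in a single culture.

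Promoter windows, 250 bases directly before the transcription start, are shown for abundant fibrillar and filament chains and for Col8a1, the gene with the most negative fold change of the collagens. They are RefSeq sequences of GRCm38.p6, read 5′ to 3′ on the strand of the gene. Capitals mark 3 promoter motifs searched on both strands, namely TATAAA as in the TATA box, CCAAT and GGGCGG, the last known as the GC box, and a motif on the other strand appears as its reverse complement. The windows lie at chr6:4505368-4505617 (Col1a2, forward strand), chr1:45311288-45311537 (Col3a1, forward strand), chr10:76726045-76726294 (Col6a1, reverse strand) and chr16:57754738-57754987 (Col8a1, reverse strand).
Col1a2: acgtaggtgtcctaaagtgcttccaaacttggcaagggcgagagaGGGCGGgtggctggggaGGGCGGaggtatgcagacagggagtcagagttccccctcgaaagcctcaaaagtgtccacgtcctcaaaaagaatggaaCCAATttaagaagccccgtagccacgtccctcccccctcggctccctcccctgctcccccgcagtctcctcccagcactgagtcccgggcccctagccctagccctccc
Col3a1: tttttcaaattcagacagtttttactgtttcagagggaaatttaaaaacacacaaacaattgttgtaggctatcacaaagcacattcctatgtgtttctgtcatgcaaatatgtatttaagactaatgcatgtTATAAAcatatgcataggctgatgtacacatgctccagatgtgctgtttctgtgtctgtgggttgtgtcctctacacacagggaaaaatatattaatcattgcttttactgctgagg
Col6a1: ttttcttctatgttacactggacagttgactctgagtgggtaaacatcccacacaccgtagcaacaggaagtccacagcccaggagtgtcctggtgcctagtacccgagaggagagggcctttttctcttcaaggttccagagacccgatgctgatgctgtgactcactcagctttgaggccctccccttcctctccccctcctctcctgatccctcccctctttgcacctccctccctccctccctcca
Col8a1: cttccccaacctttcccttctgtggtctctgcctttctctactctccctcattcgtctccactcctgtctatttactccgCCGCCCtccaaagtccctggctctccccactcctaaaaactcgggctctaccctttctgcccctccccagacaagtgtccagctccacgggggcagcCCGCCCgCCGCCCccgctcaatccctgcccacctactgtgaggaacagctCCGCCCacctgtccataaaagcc
The Col1a2 window held CCAAT with its first base 109 bases before the start and GGGCGG at 205 and 188 bases. The Col3a1 window held TATAAA at 117 bases, and the Col6a1 window none of the 3 motifs. The Col8a1 window held GGGCGG 4 times on the other strand, at 170, 73, 66 and 23 bases. Among the 38 windows found for 35 of the 44 collagen genes, 57.9% held GGGCGG, against 32.7% of all 32851 windows of the same 250 bases. CCAAT was present in 34.2% against 33.8% and TATAAA in 13.2% against 12.4%. These matches describe the letters of the windows and were not tested for any role in the abundance.

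The basement membrane chains were led by Col4a1 and Col4a2, which together form the common type IV heterotrimer. Col4a1 (NM_009931, chromosome 8, 11198423 to 11312889) was at 158, 206 and 149 RPKM in WT and at 186, 132 and 114 RPKM in Ucp1-KO cultures. Col4a2 (NM_009932, chromosome 8, 11312805 to 11449287) was at 91.0, 108 and 78.6 RPKM in WT and at 107, 77.6 and 64.6 RPKM in Ucp1-KO cultures. For both genes Ucp1-KO replicate 13 was above 2 of the WT cultures and Ucp1-KO replicate 15 was the lowest. Their log2 fold changes were -0.26 (standard error 0.21, limma adjusted p = 0.879) and -0.17 (standard error 0.20, limma adjusted p = 0.910). With 1 culture left out, these lay between -0.46 and -0.11 and between -0.37 and -0.01. The 2 genes lie head to head on opposite strands, and the RefSeq spans given here overlap at their starts.

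Of the other type IV chains, which serve specialised basement membranes, Col4a5 alone was tested. It was at 4.89, 8.14 and 8.32 RPKM in WT and at 4.76, 5.21 and 6.27 RPKM in Ucp1-KO cultures. WT replicate 10 lay among the Ucp1-KO values, so the genotypes overlapped (log2 fold change -0.32, limma adjusted p = 0.876). Col4a3, Col4a4 and Col4a6 did not exceed 0.144 RPKM in any culture. Col4a6 rested on 14, 14 and 17 reads in WT and on 7, 2 and 4 reads in Ucp1-KO cultures, and its mean of 0.0861 RPKM was below the minimum for the comparison.

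Col15a1 and Col18a1 encode the multiplexin collagens, which sit at the border of basement membranes and carry the endostatin-type domains. Col15a1 was at 55.3, 99.7 and 76.7 RPKM in WT and at 81.6, 65.0 and 61.6 RPKM in Ucp1-KO cultures. Its Ucp1-KO values fell inside the WT range. Col18a1 was at 12.3, 21.8 and 13.9 RPKM in WT and at 17.3, 21.3 and 20.9 RPKM in Ucp1-KO cultures. It was the only basement membrane chain tested with a positive log2 fold change (0.33, standard error 0.21, limma adjusted p = 0.876), although WT replicate 11 again had the highest value.

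Type VI collagen led the remaining classes. Col6a1 (NM_009933, chromosome 10, 76708792 to 76726044) was at 208, 387 and 315 RPKM in WT and at 248, 287 and 279 RPKM in Ucp1-KO cultures. Col6a2, from the same chromosome, was at 121, 244 and 192 RPKM in WT and at 174, 197 and 174 RPKM in Ucp1-KO cultures. In both, the 3 Ucp1-KO cultures lay close together between the extremes of the WT cultures. Col6a3, the long chain of the common type VI trimer, was at 53.5, 71.9 and 57.6 RPKM in WT and at 75.9, 62.5 and 69.3 RPKM in Ucp1-KO cultures. Its highest value came from a Ucp1-KO culture, unlike that of Col6a1 and Col6a2 (log2 fold change 0.19, limma adjusted p = 0.878). Col6a5, an alternative to Col6a3 in the trimer, was at 0.246, 1.66 and 1.03 RPKM in WT and at 0.140, 0.724 and 0.0431 RPKM in Ucp1-KO cultures. The extremes of Col6a5 were 38.5-fold apart, the widest range of the genes tested, and rested on 6 reads in the lowest culture. Col6a4 and Col6a6, the other alternatives, did not reach the minimum.

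**Figure D2:**
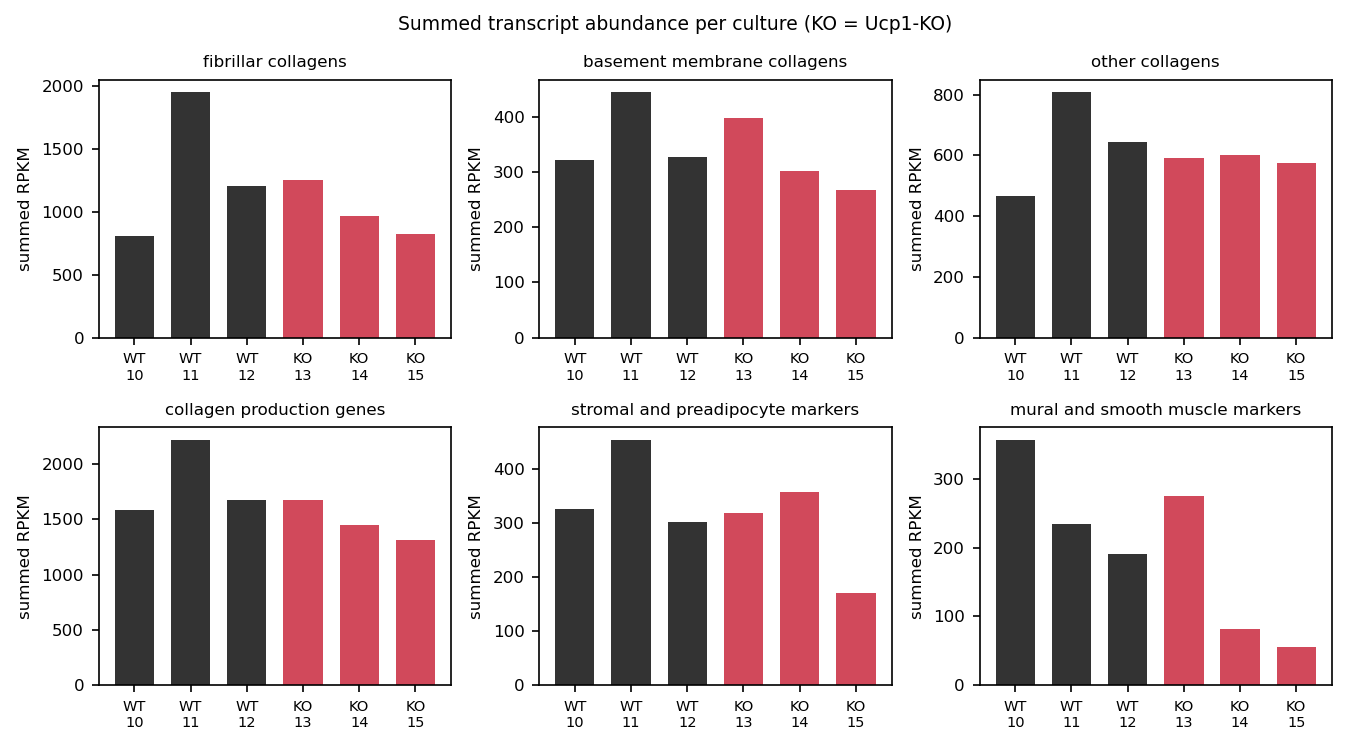
Summed abundance (RPKM, linear axes from 0) in each culture, dark for WT and red for Ucp1-KO, for the 3 collagen classes, the collagen production genes and 2 groups of cell type markers; each bar is 1 culture. The fibrillar sum runs from 808 RPKM in WT replicate 10 to 1953 RPKM in WT replicate 11, and the mural sum from 358 RPKM in WT replicate 10 to 56.0 RPKM in Ucp1-KO replicate 15.

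Col8a1, a short-chain collagen of vessel walls and of the endothelial matrix, stood out for its size of difference. It was at 12.1, 29.0 and 13.8 RPKM in WT and at 12.4, 3.67 and 2.57 RPKM in Ucp1-KO cultures. Ucp1-KO replicates 14 and 15 were far below all others, whereas Ucp1-KO replicate 13 was level with WT replicate 10. The log2 fold change was -1.57 (standard error 0.53, unadjusted p = 0.0224 and adjusted p = 0.868 by limma), and the Ucp1-KO mean was 33.9% of the WT mean. With Ucp1-KO replicate 13 left out the log2 fold change was -2.14, and with replicate 15 left out -1.19. The unadjusted limma p was 0.0732 without WT replicate 11, 0.0642 without Ucp1-KO replicate 14 and 0.0694 without Ucp1-KO replicate 15. It stayed under 0.05 with any other culture left out. An exact two-sided permutation test gave p = 0.2, where 0.1 is the smallest p that 3 against 3 cultures allow. Its partner Col8a2 had a mean of 0.166 RPKM and was not tested.

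The FACIT collagens attach to the surface of fibrils. Col12a1, the most abundant of them, was at 51.0, 43.3 and 41.1 RPKM in WT and at 56.8, 31.5 and 30.2 RPKM in Ucp1-KO cultures. Ucp1-KO replicate 13 had the highest and Ucp1-KO replicate 15 the lowest value (log2 fold change -0.24, limma adjusted p = 0.901). The log2 fold change was -0.53 without the former culture and -0.09 without the latter. Col14a1 was at 2.21, 9.80 and 3.95 RPKM in WT and at 2.20, 1.77 and 1.41 RPKM in Ucp1-KO cultures. All WT values were above all Ucp1-KO values, though WT replicate 10 and Ucp1-KO replicate 13 were nearly equal (log2 fold change -1.0, standard error 0.41, unadjusted p = 0.0462 and adjusted p = 0.868 by limma). Without WT replicate 11 the log2 fold change of Col14a1 was -0.52, and without WT replicate 10 it was -1.40. Its unadjusted limma p was 0.00661 without WT replicate 10 and between 0.0614 and 0.114 with any other culture left out. With no minimum the p was 0.0597, and with limma-voom 0.0589. Col16a1 and Col20a1 had log2 fold changes of -0.32 and 0.01.

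Of the remaining chains, 2 were tested. Col27a1, a fibril-forming chain by structure that was counted with the others here, was at 8.44, 4.41 and 5.95 RPKM in WT and at 10.1, 6.25 and 9.52 RPKM in Ucp1-KO cultures. It was the only gene tested whose lowest value was that of WT replicate 11, and had the most positive log2 fold change of the collagens (0.42, standard error 0.25, limma adjusted p = 0.876). Col28a1 was at 1.97, 1.73 and 1.75 RPKM in WT and at 1.71, 1.06 and 0.962 RPKM in Ucp1-KO cultures. Its genotypes did not overlap, with the nearest cultures almost equal (log2 fold change -0.34, limma adjusted p = 0.868).

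The 20 genes below the minimum had means of at most 0.416 RPKM (Col7a1, the anchoring fibril collagen). They include all 4 transmembrane collagens (Col13a1, Col17a1, Col23a1 and Col25a1), the type IX chains of cartilage, and Col10a1 of hypertrophic cartilage. Col9a1 and Col19a1 were listed at 0 in all cultures. Col7a1 rested on 46 to 87 reads and Col23a1 on 27 to 43 reads in each culture, well above the floor of 3 reads. Col6a6, Col24a1 and Col4a3 were above that floor in every culture too, and the remaining genes were at or under it in at least 1 culture.

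Across the comparison as a whole, none of the 24 collagen genes passed the adjusted p of 0.05, nor did any of the 16865 transcripts tested (0.0%). The smallest limma adjusted p of the collagens was 0.868. An unadjusted p under 0.05 was found for 2 collagens (8.33%), Col8a1 and Col14a1, both with lower means in Ucp1-KO cells, against 5.54% of all transcripts (3.24% with WT higher and 2.3% with Ucp1-KO higher). The genotypes did not overlap for 2 collagens (8.33%), Col14a1 and Col28a1, both with WT higher, against 11.2% of all transcripts (5.15% with WT higher and 6.04% with Ucp1-KO higher). With 2 genes each, neither share of the collagens stood far from that of transcripts in general. The log2 fold change was below 0 for 18 of the 24 (75.0%), against 50.4% of all transcripts, and its median was -0.23 against -0.0016. By class, 7 of 8 fibrillar, 4 of 5 basement membrane and 7 of 11 other chains were below 0, with medians of -0.24, -0.17 and -0.24. With 1 culture left out, these medians lay between -0.46 and -0.0045, between -0.31 and -0.04 and between -0.42 and -0.06. Without a minimum they were -0.21, -0.12 and -0.03. Of the 42 collagens in that fit, 26 were below 0 and 16 above, with a median of -0.08 against 0.001 for all transcripts. Without WT replicate 11, 14 of the 24 were below 0 and 10 above, and the median was -0.06, so that the direction of the group rested largely on this culture. The genes with an unadjusted p under 0.05 were then Col18a1 and Col6a3, both with higher means in Ucp1-KO cells, in place of Col8a1 and Col14a1.

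**Figure D3:**
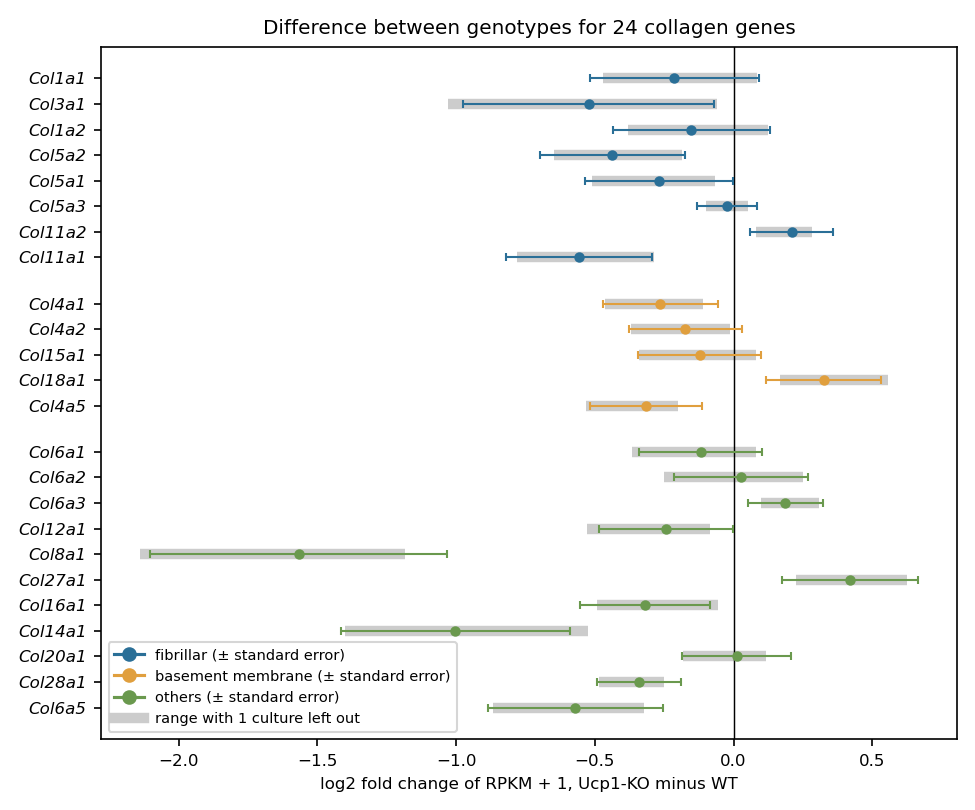
Log2 fold change (Ucp1-KO against WT, on log2(RPKM + 1)) of each collagen gene tested, with its standard error from limma as thin bars, coloured by class; the grey bands span the values with 1 culture left out. Values run from -1.57 (Col8a1) to 0.42 (Col27a1), and 18 of 24 points lie below 0.

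The classes were also summed per culture. Fibrillar chains summed to 808, 1953 and 1204 RPKM in WT and to 1258, 970 and 825 RPKM in Ucp1-KO cultures, so that the Ucp1-KO mean was 77.0% of the WT mean. Basement membrane chains summed to 322, 444 and 327 RPKM in WT and to 397, 302 and 267 RPKM in Ucp1-KO cultures, or 88.3%. The other chains summed to 467, 808 and 643 RPKM in WT and to 592, 601 and 576 RPKM in Ucp1-KO cultures, or 92.2%. In each class the highest sum belonged to WT replicate 11, and Ucp1-KO values overlapped with WT. Without WT replicate 11, the ratio of Ucp1-KO to WT for all collagens was 1.02.

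Cultures of the same genotype differed widely in their collagens. WT replicate 11 held the highest value for 17 of the 24 collagens (70.8%), but for 26.8% of all transcripts tested. The lowest value belonged to Ucp1-KO replicate 15 for 9 collagens (37.5% against 26.5% of all transcripts) and to WT replicate 10 for 8 (33.3% against 21.3%). On the log2 scale, WT replicate 11 exceeded the mean of the other WT cultures by a median of 0.60 over the collagens and by 0.07 over all transcripts. WT replicate 10 differed from its group by -0.60 and Ucp1-KO replicate 13 by 0.33. The median SD within a genotype was 0.36 for the collagens and 0.17 for all transcripts, and 0.15 for the 1716 transcripts at least as abundant as the median collagen. These are descriptions of the collagens as a group, without a test.

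The ratio of the main chains of a trimer varied less than their levels for types I and IV, for Col5a1 and Col5a2 and for Col6a1 and Col6a2. Col1a1 over Col1a2 was 1.22, 1.31 and 1.28 in WT and 1.23, 1.21 and 1.20 in Ucp1-KO cultures. Its extremes were 1.09-fold apart, while those of Col1a1 were 2.16-fold apart. Col4a1 over Col4a2 was 1.74, 1.90 and 1.90 in WT and 1.74, 1.71 and 1.76 in Ucp1-KO cultures, a range of 1.11-fold. Col6a1 over Col6a2 ranged from 1.42 to 1.72. Col6a3 over Col6a2 ranged from 0.295 to 0.441 and was highest in WT replicate 10. Col5a1 over Col5a2 ranged from 0.642 to 0.843. Of the ratios between different collagen types, Col1a1 over Col5a1 ranged from 6.49 to 8.10, or 1.25-fold, less than the 1.31-fold of Col5a1 over Col5a2. Col3a1 over Col1a1 ranged more widely, from 0.687 to 1.26, and was highest in WT replicate 11. Col5a3 over Col5a1 ranged from 0.708 to 1.24 and was lowest in that culture. Col15a1 over Col18a1 was 4.49, 4.58 and 5.50 in WT and 4.72, 3.05 and 2.95 in Ucp1-KO cultures, with Ucp1-KO replicate 13 among the WT values. These ratios show unequal levels between the chains and share a library each.

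**Figure D4:**
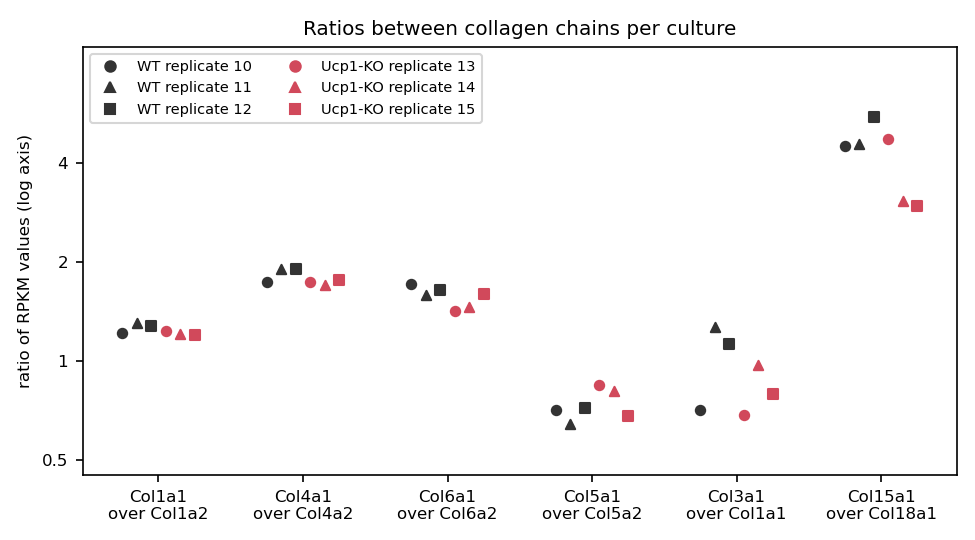
Ratio of the RPKM values of pairs of collagen chains in each culture (log axis), dark for WT and red for Ucp1-KO, each point 1 culture. Col1a1 over Col1a2 stays between 1.20 and 1.31, whereas Col3a1 over Col1a1 spreads from 0.687 to 1.26.

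Genes that make collagen were measured next to the chains. Of 34 genes for chain modification, folding, export, propeptide removal and crosslinking, 30 were tested and none passed the adjusted p. All 30 had a log2 fold change below 0, with a median of -0.29, and WT replicate 11 was highest for 22 of them. With WT replicate 11 left out, 26 of 30 were below 0 and the median was -0.18, and without Ucp1-KO replicate 15 the count was 24 of 30. Serpinh1, the collagen-specific chaperone, was the most abundant and nearly level, at 319, 353 and 267 RPKM in WT and 376, 270 and 257 RPKM in Ucp1-KO cultures. P4hb, a subunit of prolyl 4-hydroxylase, and Lox, the lysyl oxidase that crosslinks fibrils, followed with log2 fold changes of -0.38 and -0.41. By limma, an unadjusted p under 0.05 was found for P4ha1, the catalytic subunit of prolyl 4-hydroxylase (-0.37, unadjusted p = 0.0359), the lysyl oxidase-like genes Loxl2 (-0.50, unadjusted p = 0.0315) and Loxl4 (-0.56, unadjusted p = 0.0311), and Mia3, which exports procollagen from the endoplasmic reticulum (-0.23, unadjusted p = 0.0377). Among the 30, the cultures of WT and Ucp1-KO were apart for 5, these 4 and P3h4, a member of the prolyl 3-hydroxylase family that works in collagen modification, all with WT higher. Over all transcripts, 3.24% had an unadjusted p under 0.05 with WT higher and 5.15% did not overlap with WT higher. The number with an unadjusted p under 0.05 was 0 without WT replicate 11, without WT replicate 12 or without Ucp1-KO replicate 14, 1 without Ucp1-KO replicate 15, and 10 without WT replicate 10 or without Ucp1-KO replicate 13. The share of all transcripts with such a p was 5.54% with all cultures, 10.4% without WT replicate 10 and 9.14% without Ucp1-KO replicate 13. It was 1.88% and 2.61% without WT replicate 11 and 12, and 3.57% and 5.16% without Ucp1-KO replicate 14 and 15. Counts of the lists below with a culture left out stand against the same shares.

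Of 11 tested genes of collagen degradation, 9 were below 0 and 2 above, with a median log2 fold change of -0.30. The most abundant were the inhibitors of matrix metalloproteinases Timp1, Timp2 and Timp3, with log2 fold changes of -0.74, -0.55 and -1.38 and overlapping genotypes. With 1 culture left out, these lay between -1.30 and -0.24, between -0.76 and -0.14 and between -2.14 and -0.87. The 2 genes above 0 were those with an unadjusted limma p under 0.05. Mmp13, a collagenase, was at 0.876, 1.70 and 1.58 RPKM in WT and at 1.71, 7.63 and 5.69 RPKM in Ucp1-KO cultures (log2 fold change 1.19, limma unadjusted p = 0.0251, adjusted p = 0.868). Timp4 was at 0.786, 0.508 and 0.359 RPKM in WT and at 1.14, 1.23 and 1.51 RPKM in Ucp1-KO cultures (log2 fold change 0.57, limma unadjusted p = 0.0062, adjusted p = 0.868). In both genes all Ucp1-KO cultures were above all WT cultures, by a small margin for Mmp13 in Ucp1-KO replicate 13. Over all transcripts, 2.3% had such a p with Ucp1-KO higher and 6.04% did not overlap with Ucp1-KO higher. Without Ucp1-KO replicate 14 or 15 Timp4 alone had an unadjusted p under 0.05, without WT replicate 10 Timp4 and Fap did, and without Ucp1-KO replicate 13, 6 genes did. The median was -0.14 without WT replicate 11, -0.52 without WT replicate 10, and -0.54 both with 0.1 RPKM added and with limma-voom on reads.

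Of 6 tested collagen receptors, 5 were below 0, with a median log2 fold change of -0.23. Itgb1, the common beta chain of the collagen-binding integrins, and the receptor tyrosine kinase Ddr1 had log2 fold changes of -0.23 and -0.22. Ddr2, the receptor tyrosine kinase for fibrillar collagen, was at 17.3, 27.1 and 28.2 RPKM in WT and at 17.2, 16.9 and 15.8 RPKM in Ucp1-KO cultures (log2 fold change -0.49, limma unadjusted p = 0.0329, adjusted p = 0.868). Itga11, an integrin alpha chain for fibrillar collagen, was at 4.16, 9.77 and 7.20 RPKM in WT and at 3.69, 3.76 and 3.53 RPKM in Ucp1-KO cultures (log2 fold change -0.72, limma unadjusted p = 0.0245, adjusted p = 0.868). All WT cultures exceeded all Ucp1-KO cultures in both, with WT replicate 10 the nearest. Over all transcripts, 3.24% had such a p with WT higher and 5.15% did not overlap with WT higher. No receptor had an unadjusted p under 0.05 without WT replicate 11 or without WT replicate 12. The receptors with such a p were Itga11 alone without Ucp1-KO replicate 14, Lair1 alone without Ucp1-KO replicate 15, and Ddr1 and Itgb1 without Ucp1-KO replicate 13.

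Non-collagen partners in the matrix were counted in the same way. Of 14 tested basement membrane partners, 11 were below 0 (median -0.21). The most abundant were Sparc, a collagen-binding matricellular protein, Nid1, which bridges laminin and type IV collagen, and the laminin chain Lamb1, each with a log2 fold change of -0.30. Without WT replicate 11 these were -0.10, -0.21 and -0.15. Nid1 (limma unadjusted p = 0.0274) and the laminin chain Lamb2 (-0.49, limma unadjusted p = 0.00818) had an unadjusted p under 0.05. Of 16 fibrillar matrix partners, all 16 were below 0 (median -0.49). Without WT replicate 11, 13 were below 0 and the median was -0.24, and without Ucp1-KO replicate 13 the median was -0.76. Fn1, the fibronectin that templates collagen fibrils, had a log2 fold change of -0.70 (limma unadjusted p = 0.031), Thbs1 one of -0.51, Postn one of -0.17 and the microfibril protein Mfap4 one of -1.36 (limma unadjusted p = 0.0423). Without WT replicate 11 the value was 0.13 for Postn and -0.73 for Mfap4. With 1 culture left out, Fn1 lay between -0.91 and -0.47 and Thbs1 between -0.86 and -0.30. Against these 2 of 16 (Fn1 and Mfap4), 3.24% of all transcripts had an unadjusted p under 0.05 with WT higher. The genotypes overlapped for all 16, Fn1 and Mfap4 included, whereas 11.2% of all transcripts did not overlap. Of the 14 basement membrane partners, 3 did not overlap. The number of fibrillar partners with an unadjusted p under 0.05 was 0 without WT replicate 11, WT replicate 12 or Ucp1-KO replicate 15. It was 1 (Fn1) without Ucp1-KO replicate 14, without a minimum or with limma-voom, 6 without Ucp1-KO replicate 13 and 8 without WT replicate 10. Of the basement membrane partners, Lamb2 alone had such a p without WT replicate 11, WT replicate 12 or Ucp1-KO replicate 14 or 15. Their number was 4 without WT replicate 10, without a minimum or with limma-voom and 3 with median-of-ratios scaling, and their median was -0.09 without WT replicate 11. No partner of either list passed the adjusted p.

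Markers of adipocytes and of other cells were counted in the same way. All 7 adipocyte markers had a log2 fold change above 0 (median 0.14), and 0 of them an unadjusted p under 0.05 by limma, though Cidea had one without Ucp1-KO replicate 13. The largest was that of Cidea, a lipid droplet protein, with 0.43. Without Ucp1-KO replicate 13 the count above 0 was 5 of 7 and the median 0.07, and without WT replicate 12 the median was also 0.07. Their sum, most of it Fabp4, lay between 30080 and 33880 RPKM. In bulk samples, fewer cells of a type and less RNA per cell cannot be told apart. Of 10 stromal and preadipocyte markers, 7 were tested and all 7 were below 0 (median log2 fold change -0.44), and WT replicate 11 was highest for 6. Their sum was 325, 454 and 302 RPKM in WT and 319, 357 and 170 RPKM in Ucp1-KO cultures, and Dlk1, Pi16 and Dpp4 were below the minimum. With WT replicate 11 left out, 5 of the 7 were below 0 and the median was -0.29. It was -0.20 without Ucp1-KO replicate 15 and -0.73 without Ucp1-KO replicate 13. Of the 7, 1 had an unadjusted p under 0.05 with WT higher, namely Dcn, which encodes the collagen-binding proteoglycan decorin (log2 fold change -0.85, unadjusted p = 0.00513 by limma), against 3.24% of all transcripts. This number was 5 without Ucp1-KO replicate 13, 3 without WT replicate 10 and 2 with limma-voom. The 7 mural and smooth muscle markers were all below 0 (median -0.93) and summed to 358, 235 and 191 RPKM in WT and 276, 81.5 and 56.0 RPKM in Ucp1-KO cultures, in which replicates 14 and 15 were low as they were for Col8a1. Of the 7 mural markers, 3 had an unadjusted p under 0.05 with WT higher by limma, namely Cspg4 (log2 fold change -0.47), Cnn1 (-0.93) and Myh11 (-0.55), and none passed the adjusted p. Cspg4 alone had such a p without WT replicate 12 or without Ucp1-KO replicate 15, and 5 had one without Ucp1-KO replicate 13. Of 7 endothelial markers, 5 were tested, all below 0 and highest in WT replicate 11, with a sum of 2.93, 34.9 and 16.1 RPKM in WT and 7.17, 16.4 and 5.88 RPKM in Ucp1-KO cultures. Leaving out WT replicate 11 put all 5 above 0, with a median of 0.12 in place of -0.41. The median was -1.02 without WT replicate 10, where Cdh5, Pecam1 and Tie1 had an unadjusted p under 0.05, -0.75 without Ucp1-KO replicate 14, and between -0.25 and -0.18 with any of the other cultures left out. The 6 macrophage markers summed to 825 RPKM in Ucp1-KO replicate 14 and to between 41.8 and 179 RPKM elsewhere, while the collagen sum of that culture, 1872 RPKM, lay between those of the other Ucp1-KO cultures. Markers of skeletal muscle, Schwann cells and of cartilage and tendon summed to at most 11.1 RPKM in any culture, with Matn1 at 0 throughout, and Comp of the last list had an unadjusted p of 0.0142 by limma (log2 fold change -0.73). The part of these cells in the collagen values was not tested.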

How the data were processed

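Single-end reads of 50 bases came from 6 cultures of differentiated brown adipocytes. The deposited unit is RPKM, which the authors computed from reads mapped to mouse build 38 and uniquely assigned to known transcripts. Cultures were identified by the names of the value columns. Of 28890 RefSeq transcripts, the 16865 that averaged 0.5 RPKM or more entered limma 3.58.1 (R 4.3.3; eBayes with trend) as log2(RPKM + 1), with genotype as the only term and Benjamini-Hochberg adjustment over all of them. The added 1 RPKM makes fold changes of rare transcripts smaller than their RPKM ratio. For single genes, RPKM values were also permuted exactly and two-sided. Library totals and reads were computed from the RPKM values, and all 16865 transcripts tested gave whole reads. Both steps were tested on simulated data.

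Collagens with a mean of at least 10 RPKM were named, as well as those with an unadjusted p under 0.05 or a 2-fold ratio of means, and chains of the same trimer. Of the lists of production, degradation, receptor and partner genes, the 3 most abundant genes and those with an unadjusted p under 0.05 were named, of the marker lists mainly the latter, and Col27a1, Col28a1, Col16a1, Col20a1, Col7a1 and the rarer chains were added as examples after their values were seen. The members and lists were chosen with earlier results of these data known. Coordinates and promoters are from RefSeq on GRCm38. Other steps ran in Python 3.11.15 (numpy 2.4.6, pandas 2.3.3 and scipy 1.17.1) and figures were drawn with matplotlib 3.10.9.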

Additional observations from a re-analysis of the deposited data

How the results depend on the processing

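No collagen passed the adjusted p in any of the 11 alternatives to the fit (another added constant of 0.1 RPKM, no minimum, 1 transcript per gene, median-of-ratios scaling, limma-voom on reads, and each culture left out). The number with an unadjusted p under 0.05, 2 as reported, was 4 without a minimum (Col8a1, Col10a1, Col24a1 and Col4a6) and lay between 0 and 9 with 1 culture left out, being 9 without WT replicate 10, 4 without Ucp1-KO replicate 13, 1 without WT replicate 12 and 0 without Ucp1-KO replicate 15. In the same order, the share of all transcripts with such a p was 10.4%, 9.14%, 2.61% and 5.16%, against 5.54% with all cultures. The count of 2 stayed with other genes in 3 settings, being Col8a1 and Col28a1 with limma-voom, Col18a1 and Col6a3 without WT replicate 11, and Col27a1 and Col6a5 without Ucp1-KO replicate 14. Of 264 single-gene log2 fold changes, 251 kept their direction and 13 did not, in 7 genes. Col20a1 was -0.0145 with limma-voom. With 1 culture left out, the log2 fold change lay between -0.25 and 0.25 for Col6a2, -0.18 and 0.12 for Col20a1, -0.34 and 0.0797 for Col15a1, -0.37 and 0.0799 for Col6a1, -0.47 and 0.0834 for Col1a1, -0.38 and 0.12 for Col1a2, and -0.10 and 0.0507 for Col5a3. The median of the collagens lay between -0.39 and -0.06 and the ratio of their sums between 0.717 and 1.02. Counts of the other lists under each alternative were added after seeing the data. The cause of these changes was not tested. No paired analysis was possible because the replicate numbers of the genotypes are not shared. Values near the floor of 3 reads are limited by depth.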
